A study of Mus musculus with 48 samples.

Results

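The 8 bulk RNA-sequencing libraries described here were those of the series whose labels gave ad-lib feeding and a collection time of 4 AM (4 libraries) or 4 PM (4 libraries), out of 48 libraries in all. Each library held messenger RNA of mouse inguinal fat, the subcutaneous white adipose tissue (sWAT) of the groin, from C57BL/6 mice 8 months old with free access to regular chow, and the study describes them as males held with lights on from 8 AM to 8 PM. The 4 AM group was therefore taken late in the dark phase, when mice are active and eat, and the 4 PM group late in the light phase, when they mostly rest. Neither group carried a transgene or received an agent. The other libraries came from 4 further ad-lib times and from mice on twice-a-night (TAN) feeding, who had 2 nightly meals. The labels numbered the libraries of a group 1 to 4 and did not say that these were separate mice. The p-values below therefore measure only spread between libraries. In the main fit that spread was estimated over all 48 libraries in 12 groups, not over these 8 alone.

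The direction of every difference below rests on the time labels of the deposited counts. In the study's own supplementary expression table the profile of each of the 8 libraries stood under the same diet and replicate number with a time label 12 h away. This held for 8 of 8 libraries, and 48 of 48 over the series, compared over 959 genes. All 12 columns of the deposited group means carried the same time as the counts. Under the labels of that table every direction given here would turn. The values were read counts, given below as counts per 1000000 counts of the library (CPM), with 15636378 to 23114360 counts a library, against 15636378 to 29913310 over the 48 libraries. The deposited design text calls the material the stromal vascular fraction, which is fat freed of adipocytes, whereas the study's methods describe whole frozen sWAT. Summed over 8 adipocyte markers (Adipoq, Plin1, Lep, Cfd, Retn, Cidec, Lipe and Fabp4), the libraries held 17395 to 35542 CPM, so adipocyte RNA was abundant in every one of them.

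Both libraries numbered 1 and 3 at 4 AM stood apart. Replicate 3 at 4 AM held 7847 CPM summed over the skeletal muscle markers, against 12.9 to 25.2 CPM in the other 7 libraries, and the muscle actin Acta1 was at 2149 CPM there. The same library held 9.42 CPM of B lymphocyte markers where the other 7 held 846 to 1676 CPM, and 12.4 CPM of T lymphocyte markers where they held 663 to 1475 CPM. Its share of mitochondrially encoded counts was 8.92%, against 3.72% to 6.16% in the other libraries. The study's methods say that lymph nodes were taken out for the cell isolations, and lymph node stroma and venule markers were at 13.4 CPM in this library and at 133 to 282 CPM in the rest. In bulk tissue, fewer cells of a type and less RNA per cell cannot be told apart.

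**Figure D1:**
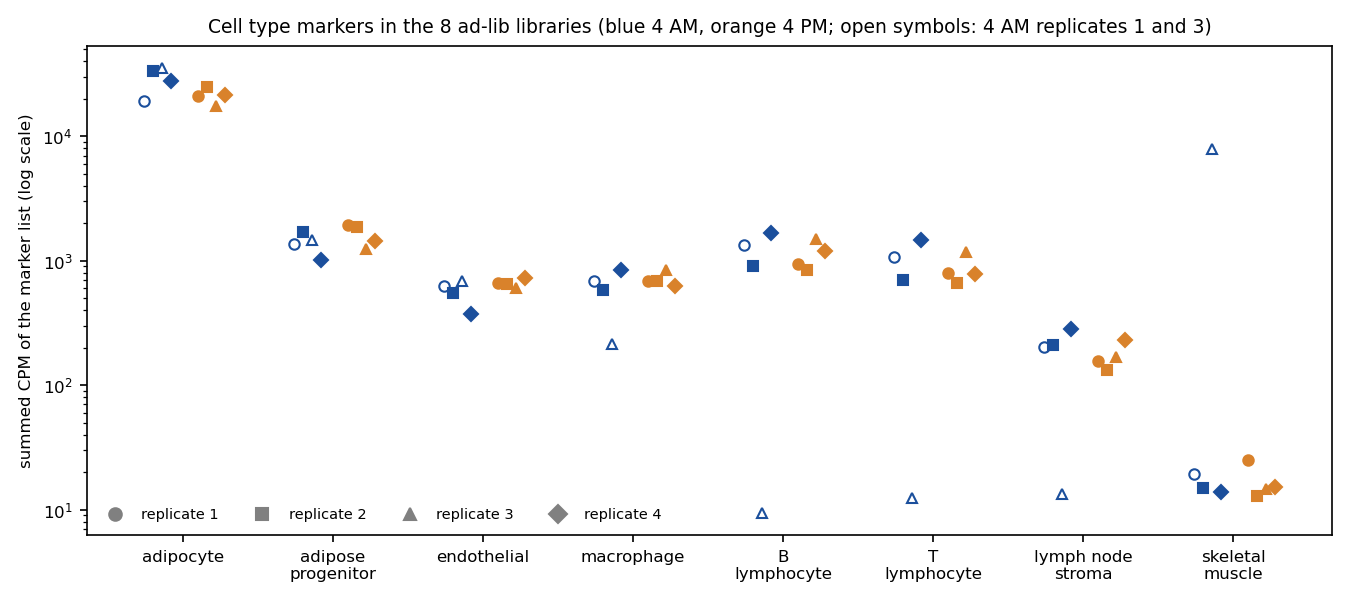
Summed CPM of 8 cell type marker lists (log scale) in the 4 libraries at 4 AM (blue) and the 4 at 4 PM (orange), 1 symbol per library, with 4 AM replicates 1 and 3 as open symbols. Replicate 3 at 4 AM lies at 7847 CPM for skeletal muscle and at 9.42 CPM for B lymphocytes, far from the other 7 libraries.

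The library labelled 4 AM, replicate 1, went against its label in the clock genes. Over the 23 clock genes listed below it lay within the range of the 4 libraries at 4 PM in 16, and its mean absolute log2 distance was 0.29 to the 4 PM mean but 1.41 to the mean of the other libraries at 4 AM. The other 3 libraries at 4 AM lay within the 4 PM range in 4, 3 and 1 of the 23 genes. Over all tested genes its median correlation was 0.965 with the libraries at 4 PM and 0.931 with those of its own group, a smaller contrast that the other libraries at 4 AM showed in the same direction (0.952 against 0.947, 0.887 against 0.870 and 0.934 against 0.931). The label was kept. The counts over all genes and over the clock, lipid and glucose lists are given with all libraries, without replicate 3 and without replicate 1. For single genes only some of these fits are given, or a range over the fits that each left out 1 library. Because replicate 1 was noticed from these same clock genes, the fits without it describe the remaining libraries and are no independent test of the clock. The same limit was taken to hold for other genes in which replicate 1 lay near the 4 PM libraries.

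The circadian clock of mammalian cells is a transcriptional loop. The bHLH factors ARNTL (also called BMAL1) and CLOCK, or its relative NPAS2, bind E-boxes and switch on the Period, Cryptochrome, Nr1d and Dbp genes; PER and CRY proteins then block ARNTL and CLOCK, while the nuclear receptors NR1D1 and NR1D2 repress Arntl, Npas2 and Nfil3 through ROR response elements. DBP, TEF and HLF activate genes through D-boxes, which NFIL3 occupies as a repressor. In white fat, as in liver, the negative arm and the D-box activators are known to peak around the end of the light phase and Arntl around the end of the night.

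The letters of these elements stand in several of the promoters, taken from RefSeq on GRCm38.p6 as 250 bases before to 50 after each start; 18 of the genes (the clock genes and Dtx4) matched an entry. They are shown because the genes below fall into these classes. On either strand, the E-box CACGTG stood in the promoters of 5 of the 18 genes, against 8.09% of all 27025 genes with a promoter. The ROR core TAGGTCA stood in 2 of 18 (all genes, 2.97%) and the D-box TTANGTAA in 1 of 18 (2.72%). For each gene the window of 30 bases around 1 match follows, 5′ to 3′ on the strand of the gene, with the motif letters in capitals. For Nfil3 these are the reverse complement of the core. Ciart, Tef and Per3 held further matches, which are not shown. A match describes the letters only.
Per1 E-box, chr11:69098771-69098800, plus strand: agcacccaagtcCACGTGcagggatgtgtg
Cry1 E-box, chr10:85185097-85185126, minus strand: ggtgccggtggtCACGTGgggtgcatgccg
Bhlhe41 E-box, chr6:145865556-145865585, minus strand: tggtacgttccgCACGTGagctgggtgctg
Ciart E-box, chr3:95882327-95882356, minus strand: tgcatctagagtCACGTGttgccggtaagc
Tef E-box, chr15:81802534-81802563, plus strand: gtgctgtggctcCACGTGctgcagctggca
Per3 D-box, chr4:151044852-151044881, minus strand: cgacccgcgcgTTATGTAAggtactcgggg
Arntl ROR core, chr7:113207530-113207559, plus strand: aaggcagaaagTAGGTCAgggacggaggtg
Nfil3 ROR core, chr13:52981033-52981062, minus strand: gcgctcggaacTGACCTActaacacacatc

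With all libraries, 1 gene of 19977 tested differed between 4 AM and 4 PM at an adjusted p under 0.05 (edgeR quasi-likelihood test over all 48 libraries, Benjamini-Hochberg), which is 0.00501% of the genes. That gene was Dtx4, a Deltex-family E3 ubiquitin ligase that acts on Notch signalling, and it rose at 4 AM. Without 4 AM replicate 3 no gene passed in edgeR, while limma voom called 1 (Nr1d1, lower) and DESeq2 called 22 in the same libraries. The 22 included Klhl41, Mylk2, Mb, Myh1 and other muscle genes, and also Ambp, Cps1 and Otc. Of the genes described here, Calr, Cry1 and Dtx4 were among them. Before adjustment, 1562 genes (7.82%) had a p under 0.05, of which 1309 (6.55%) had the higher mean at 4 AM and 253 (1.27%) at 4 PM. Without replicate 3 these were 1066 (5.34%) and 311 (1.56%), and without replicate 1 they were 1953 (9.78%) and 1124 (5.63%). Without replicate 1 at 4 AM, 61 genes (0.305%) passed at an adjusted p under 0.05, 54 higher (0.27%) and 7 lower (0.035%). Without both libraries 89 genes (0.446%) passed, 76 higher (0.38%) and 13 lower (0.0651%), and 39 of the 61 were among them.

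Dtx4 was measured at 20.5, 76.6, 117 and 64.4 CPM in replicates 1 to 4 at 4 AM and at 19.1, 25.9, 20.5 and 18.3 CPM at 4 PM. Replicates 2, 3 and 4 at 4 AM lay above every library at 4 PM, and replicate 1 lay among them. The log2 fold change was 1.74 (SE 0.32, adjusted p = 0.0471, edgeR). Over the 8 fits that each left out 1 library, the call held in 1, that without 4 AM replicate 1, and the adjusted p (edgeR) ranged from 0.000110 to 0.446; without replicate 3 the log2 fold change was 1.37 (adjusted p = 0.446, edgeR). Across the 6 ad-lib times its mean was 67.4 CPM at 8 AM, 56.8 at 12 PM, 20.9 at 4 PM, 25.6 at 8 PM, 51.6 at 12 AM and 69.8 at 4 AM (SD 3.42 to 39.9, n = 4), so 4 PM held the lowest and 4 AM the highest mean. The range at 4 AM, 20.5 to 117 CPM, overlapped that of every other time.

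None of the 23 clock genes passed the adjusted threshold with all libraries (lowest adjusted p = 0.156, edgeR, for Nfil3), against 0.00501% of all genes. At an unadjusted p under 0.05, 5 of the 23 were higher at 4 AM (all genes, 6.55%) and 10 lower (1.27%). Arntl, Clock, Npas2, Nfil3 and the repressor Cry1 had the higher means at 4 AM, while Per1, Per2, Per3, Ciart, Nr1d1, Nr1d2, Bhlhe41, Dbp, Tef and Hlf had the higher means at 4 PM. Without replicate 3 these counts were 4 and 6 (all genes, 5.34% and 1.56%). Without replicate 1 they were again 5 and 10 (all genes, 9.78% and 5.63%). In that fit 6 genes were called (Nr1d2, Nfil3, Dbp, Ciart, Npas2 and Cry1), against 0.305% of all genes. Without replicate 3 the remaining libraries did not overlap in 5 clock genes, all lower at 4 AM (all genes, 3.82%, and 3.58% higher), and without replicate 1 in 3 higher and 11 lower (all genes, 10.5% each).

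Among the activators, Arntl was at 13.03, 29.0, 30.9 and 26.9 CPM in the 4 libraries at 4 AM and at 8.51, 6.64, 13.4 and 11.2 CPM at 4 PM. Replicates 2, 3 and 4 at 4 AM were about the same and above all 4 PM values, and replicate 1 lay inside the 4 PM range. Its log2 fold change was 1.33 (SE 0.36, adjusted p = 0.397, edgeR), 1.22 without replicate 3 and 1.55 without replicate 1 (adjusted p = 0.0529). Npas2 was barely expressed at 4 PM (0.227, 0.344, 0.0782 and 0.560 CPM) and in the library labelled 4 AM, replicate 1, and stood at 0.147, 2.97, 9.48 and 2.54 CPM in the 4 libraries at 4 AM. Its log2 fold change of 3.61 (SE 0.91, adjusted p = 0.307, edgeR) became 2.62 without replicate 3 (adjusted p = 0.629) and 4.03 without replicate 1, where the call was made (adjusted p = 0.0270), and 3.15 without both (adjusted p = 0.0832). Clock overlapped between the groups, at 72.4, 138, 185 and 56.1 CPM at 4 AM and 71.8, 72.5, 63.0 and 74.6 CPM at 4 PM, and its log2 fold change went from 0.68 to 0.34 without replicate 3.

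**Figure D2:**
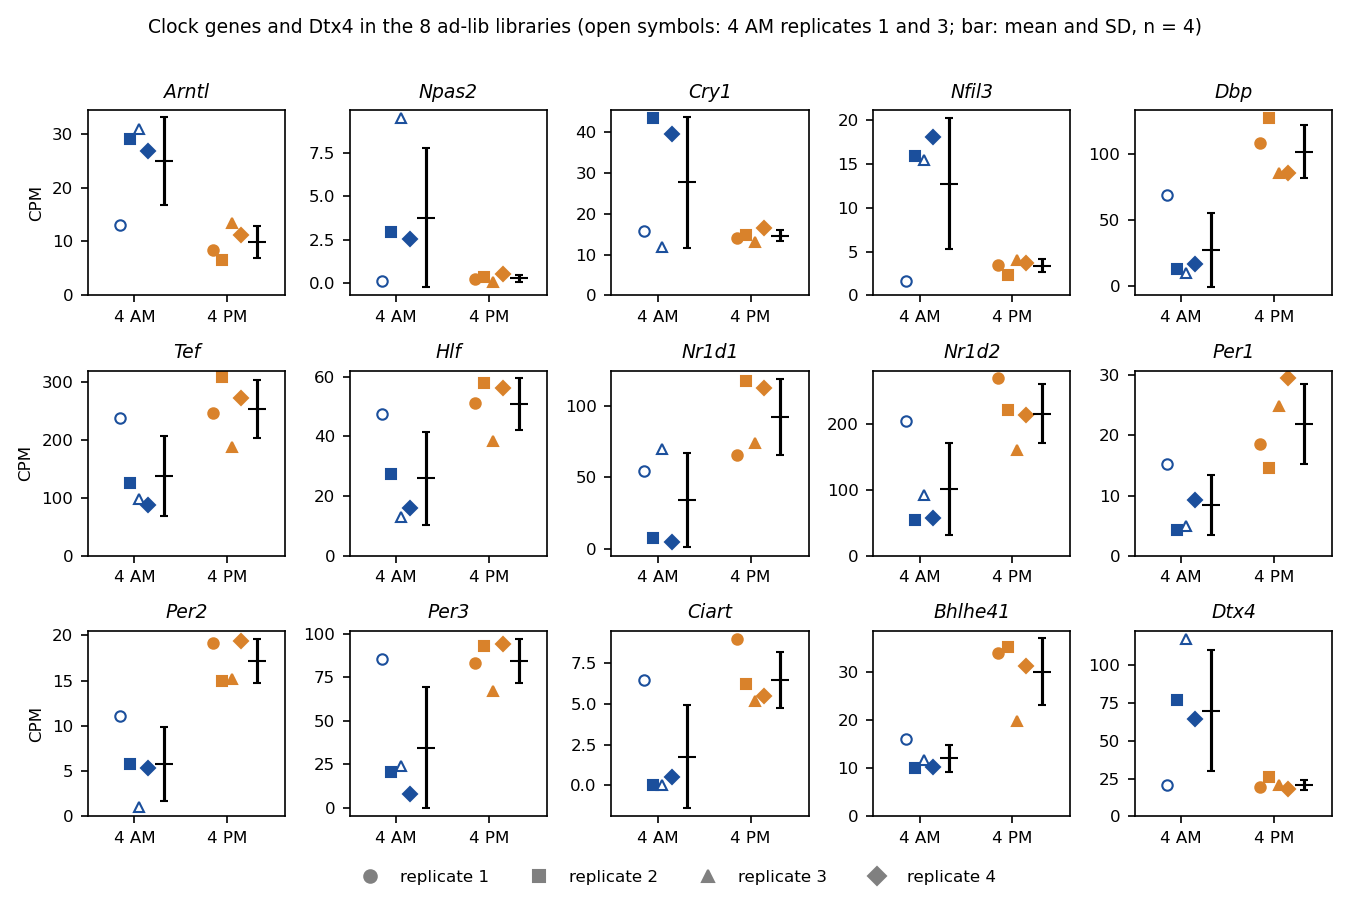
CPM of 14 clock genes and Dtx4 in the 8 ad-lib libraries, 1 symbol per replicate number, 4 AM in blue and 4 PM in orange, with the mean and SD of each 4 as a bar; each panel has its own linear axis. The library labelled 4 AM, replicate 1 (open circle), lies inside the 4 PM range in 16 of the 23 clock genes, and replicate 3 (open triangle) lies inside or just below it in Nr1d1 and Cry1.

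The nuclear receptors of the negative arm showed the spread among the libraries at 4 AM most plainly. Nr1d1 was at 54.5, 7.44, 69.9 and 4.62 CPM at 4 AM and 65.5, 118, 73.7 and 112 CPM at 4 PM, so that replicate 3 at 4 AM lay within the 4 PM range, replicate 1 just below it, and replicates 2 and 4 far below. The log2 fold change of -1.44 (SE 0.53, adjusted p = 0.462, edgeR) became -2.05 without replicate 3 and -3.93 without both libraries (adjusted p = 7.56e-04). Over the fits that each left out 1 library it ranged from -2.05 to -1.07. The exons of Nr1d1 share 263 of 3077 bases with Thra on the opposite strand, and whether the counting used strand is not given in the sources used here. Nr1d2, the second receptor of the pair, was at 204, 54.0, 91.6 and 57.0 CPM at 4 AM and 269, 221, 160.0 and 213 CPM at 4 PM, and only replicate 1 at 4 AM reached the 4 PM range. The log2 fold change of Nr1d2 was -1.09 (adjusted p = 0.393, edgeR) with all libraries and -1.04 without replicate 3. It was -1.66 without replicate 1 (adjusted p = 0.00178, edgeR).

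The Period genes, which encode the partners of the cryptochromes, had lower means at 4 AM. Per2 did not overlap between the groups, with 11.1, 5.75, 1.04 and 5.30 CPM at 4 AM and 19.1, 15.0, 15.1 and 19.4 CPM at 4 PM; its log2 fold change was -1.57 (SE 0.59, adjusted p = 0.467, edgeR). Of all genes, 1.66% lay lower at 4 AM without overlap, and Per2, Dbp and the repressor Bhlhe41 were the clock genes that did so. In the fits that each left out 1 library, Per2 ranged from -2.08 to -1.21 and Bhlhe41 from -1.48 to -1.22. Per1 was at 15.2, 4.24, 4.95 and 9.33 CPM at 4 AM and 18.6, 14.6, 24.8 and 29.4 CPM at 4 PM, and Per3 at 85.5, 20.7, 24.1 and 7.93 CPM and 83.3, 92.8, 67.1 and 93.8 CPM. In both, replicate 1 at 4 AM held the highest value of its group, within the 4 PM range. Their log2 fold changes were -1.37 and -1.29, and -1.81 and -2.25 without replicate 1, none of them called.

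Cry1, a cryptochrome repressor that is known to peak later than the Period genes, was at 15.8, 43.5, 11.9 and 39.4 CPM at 4 AM and 14.1, 14.9, 13.1 and 16.5 CPM at 4 PM. Replicates 2 and 4 at 4 AM held more than 2 times the highest value at 4 PM, while replicate 1 lay within the 4 PM range and replicate 3 just below it. The log2 fold change was 0.92 (SE 0.26, adjusted p = 0.432, edgeR), 1.18 without replicate 3, and 1.50 without both, where Cry1 was called (adjusted p = 7.56e-04). Cry2 overlapped throughout (-0.10, adjusted p = 0.983). The repressor Ciart was near 0 in replicates 2 to 4 at 4 AM: its values were 6.49, 0.0471, 0 and 0.544 CPM at 4 AM and 8.96, 6.25, 5.20 and 5.49 CPM at 4 PM. Its log2 fold change of -1.87 with all libraries was -4.96 without replicate 1, where it was called (adjusted p = 0.0202, edgeR); it was at -1.46 without replicate 3 and was not called without both (-4.42, adjusted p = 0.0621). Bhlhe41, another E-box repressor, did not overlap, with 16.1, 10.1, 11.7 and 10.3 CPM at 4 AM and 33.9, 35.3, 19.8 and 31.3 CPM at 4 PM (log2 fold change -1.32, SE 0.51, adjusted p = 0.471, edgeR), and its relative Bhlhe40 overlapped (-0.66, adjusted p = 0.872).

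The D-box activators and their repressor had means on opposite sides. Dbp, an activator and a direct target of ARNTL and CLOCK, was at 69.1, 13.3, 10.3 and 16.8 CPM at 4 AM and 109, 127, 86.1 and 85.8 CPM at 4 PM, without overlap even though replicate 1 held far more than the other libraries at 4 AM. Its log2 fold change was -1.90 (SE 0.51, adjusted p = 0.393, edgeR), and -2.91 without replicate 1, where it was called (adjusted p = 0.00432), and -1.62 without replicate 3; 539 of its 2993 exon bases lie under Sphk2 on the opposite strand. Nfil3, the D-box repressor, was at 1.67, 15.9, 15.5 and 18.0 CPM at 4 AM and 3.46, 2.31, 3.99 and 3.74 CPM at 4 PM, with replicates 2 to 4 at 4 AM well above and replicate 1 below every 4 PM library. The log2 fold change of Nfil3 was 1.92 (SE 0.43, adjusted p = 0.156, edgeR) with all libraries and 1.82 without replicate 3. It was 2.29 without replicate 1 (adjusted p = 0.00178, edgeR). Tef (-0.89, adjusted p = 0.474) and Hlf (-0.97, adjusted p = 0.516) followed Dbp in sign.

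Of the genes that set the pace or the ROR side of the loop, none had an unadjusted p under 0.05. Rora and Csnk1d lay within 0.10 of 0 on the log2 scale, and Rora changed sign when replicate 3 was left out. Csnk1e was at -0.40 (adjusted p = 0.807, edgeR) and Fbxl21 at -0.78, with the groups overlapping in each.

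Set among all 6 ad-lib times, 4 PM held the highest or lowest mean of several clock genes, and 4 AM lay between the extremes of these. Dbp and Nr1d1 had their highest ad-lib means at 4 PM (102 CPM, SD 19.9, and 92.3 CPM, SD 26.5, n = 4), while the lowest stood at 8 AM for Dbp (8.37 CPM, SD 4.99) and at 12 AM for Nr1d1 (3.63 CPM, SD 1.09). Arntl and Nfil3 had their lowest ad-lib means at 4 PM (9.93 CPM, SD 2.96, and 3.37 CPM, SD 0.740) and their highest at 8 AM for Arntl (32.3 CPM, SD 9.59) and at 12 AM for Nfil3 (23.7 CPM, SD 3.92). Compared with the mean of each of the 6 ad-lib groups over the 23 clock genes, itself left out, the library labelled 4 AM, replicate 1, was nearest to 4 PM (0.29 on the log2 scale, next nearest 8 PM at 0.53). Replicates 3 and 4 at 4 AM were nearest to 8 AM (0.67 and 0.62, against 1.01 and 0.72 to 4 AM). Replicate 2 was nearest to 4 AM by a small margin (0.68, the same as to 8 AM when rounded). The 4 AM mean used for replicates 2 to 4 included replicate 1, which itself lay near 4 PM. All 4 libraries at 4 PM were nearest to their own group (0.22 to 0.40).

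**Figure D3:**
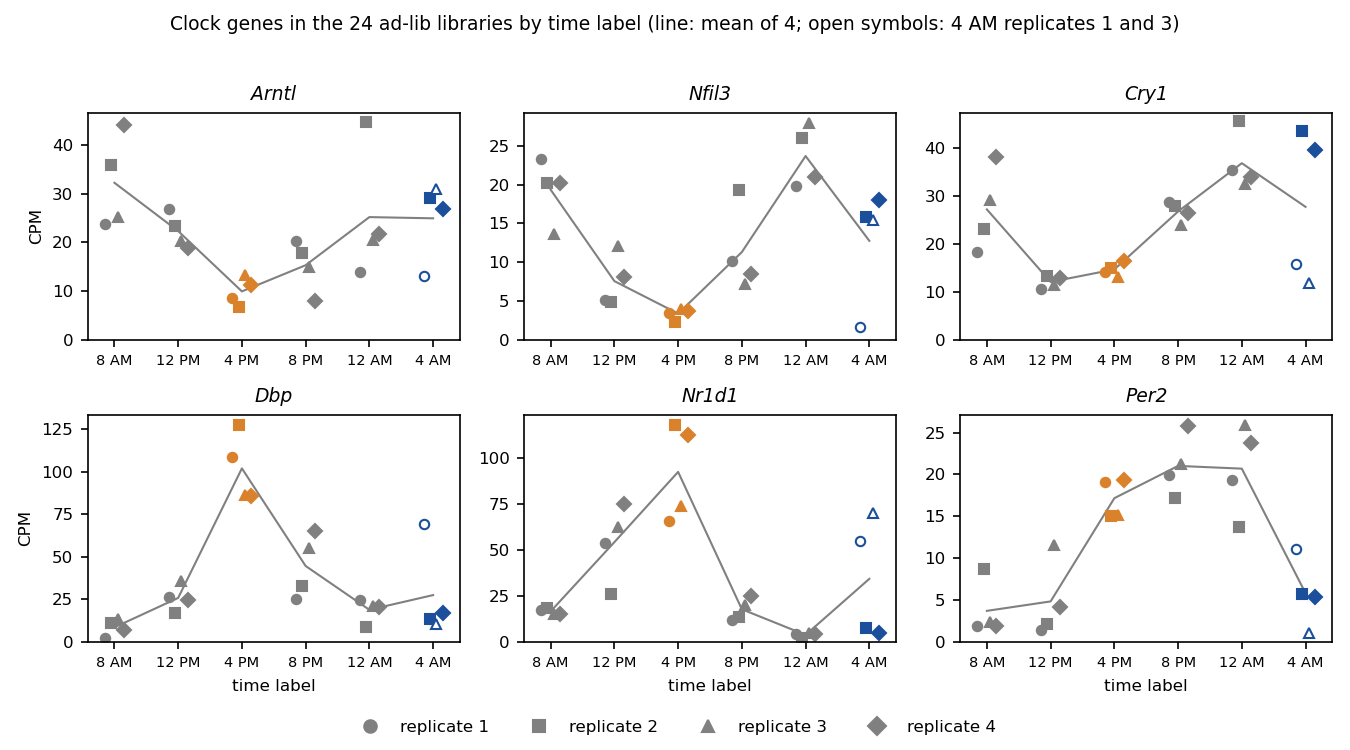
CPM of 6 clock genes in the 24 ad-lib libraries by time label, 1 symbol per replicate number, with a line through the means of 4 and the 4 AM and 4 PM libraries in blue and orange. Dbp and Nr1d1 peak at 4 PM and Arntl and Nfil3 are lowest there; the open circle at 4 AM lies inside the 4 PM range in Arntl and Cry1 and below it in Nfil3, Dbp, Nr1d1 and Per2.

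Fatty acid synthesis genes were higher at 4 AM in the libraries other than replicate 1. Of 19 tested genes of de novo lipogenesis, the pathway that turns acetyl-CoA into fatty acids, 13 were higher and 0 lower before adjustment (p under 0.05) (all genes, 6.55% and 1.27%), and none was called. The median log2 fold change was 1.24 (all tested genes, -0.03). Without replicate 3 it was 0.94 with 8 genes at that threshold (all genes, 5.34%), and without replicate 1 it was 1.48 with 16 (all genes, 9.78%). Relative to the 4 PM mean, the median of the 19 genes was 0.05 in replicate 1, 1.22 in replicate 2, 1.83 in replicate 3 and 1.14 in replicate 4.

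Fasn, the fatty acid synthase, was at 438, 1167, 3087 and 2225 CPM at 4 AM and 809.7, 546, 577 and 434 CPM at 4 PM. Replicates 2 to 4 at 4 AM lay above all 4 PM libraries and replicate 1 next to the lowest of them (log2 fold change 1.55, SE 0.54, adjusted p = 0.461, edgeR). Acly, which makes cytosolic acetyl-CoA from citrate, split in the same way, with 226, 709, 1275 and 817 CPM and 411, 228, 187 and 159 CPM (log2 fold change 1.62, adjusted p = 0.443). Thrsp, a lipogenic regulator, was at 671, 2957, 2164 and 3353 CPM at 4 AM and 911, 735, 519 and 507 CPM at 4 PM (log2 fold change 1.78, adjusted p = 0.435). Without replicate 3 the log2 fold changes of Fasn, Acly and Thrsp were 1.12, 1.25 and 1.81, and without replicate 1 they were 1.88, 1.93 and 2.09, none called. The desaturase gene Scd2 had the smallest p of the list, with 176, 461, 1029 and 425 CPM and 256, 186, 154 and 145 CPM (log2 fold change 1.50, SE 0.37, adjusted p = 0.263, edgeR). Its log2 fold change was 0.94 without replicate 3. It was called without replicate 1 (adjusted p = 0.0143, edgeR) but not without both libraries (adjusted p = 0.0869). The transcription factors that drive the pathway did not share this: Srebf1 was at -0.06 and Mlxipl at -0.10 on the log2 scale (adjusted p = 0.990 and 0.989, edgeR).

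The enzymes of cholesterol synthesis lay on the same side. Of 22 tested, 12 were higher and 0 lower before adjustment (p under 0.05), against 6.55% and 1.27% of all genes, with a median log2 fold change of 0.71. Without replicate 3 the median was 0.48 with 8 genes higher (all genes, 5.34%). Without replicate 1 it was 0.92 with 15 genes higher (all genes, 9.78%). Dhcr7, which makes cholesterol in the last step of its branch, did not overlap: it was at 23.8, 35.0, 39.4 and 34.8 CPM at 4 AM and 18.9, 12.3, 18.8 and 19.6 CPM at 4 PM (log2 fold change 0.93, SE 0.20, adjusted p = 0.137, edgeR), and of all genes 1.55% were higher at 4 AM without overlap. Pmvk, the phosphomevalonate kinase, was at 27.8, 70.2, 95.4 and 88.2 CPM and 31.5, 24.4, 21.03 and 20.4 CPM, with replicate 1 at 4 AM inside the 4 PM range (log2 fold change 1.53, SE 0.34, adjusted p = 0.144). Without replicate 3 the log2 fold changes of Dhcr7 and Pmvk were 0.85 and 1.36 (adjusted p = 0.533 and 0.629, edgeR). Without replicate 1 they were 1.07 and 1.81. Dhcr7, Pmvk, Sqle and Cyp51 were called without replicate 1 (all genes, 0.305%), and without both libraries Sqle (adjusted p = 0.0972, edgeR) and Cyp51 (adjusted p = 0.0869) were not. The regulator Srebf2 was at -0.24 on the log2 scale (adjusted p = 0.949, edgeR).

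Glucose use genes showed it as well. Of 20 tested genes of hexose entry and glycolysis, 10 were higher and 0 lower before adjustment (p under 0.05) (8 and 0 without replicate 3, 10 and 0 without replicate 1; all genes 6.55% and 1.27%, 5.34% and 1.56%, 9.78% and 5.63%), with a median log2 fold change of 0.52 (0.35 and 0.71). Pgk1, a glycolytic kinase, was at 137, 248, 271 and 259.8 CPM at 4 AM and 148, 134, 121 and 109 CPM at 4 PM (log2 fold change 0.84, SE 0.19, adjusted p = 0.144, edgeR). Ldha, the lactate dehydrogenase subunit, was at 731, 1824, 2324 and 1752 CPM and 834, 716, 601 and 593 CPM (log2 fold change 1.27, adjusted p = 0.263). In both genes replicates 2 to 4 at 4 AM exceeded every 4 PM library and replicate 1 did not, and Pgk1, Ldha and Aldoa were called without replicate 1. The log2 fold changes of Pgk1 and Ldha were 0.76 and 1.07 without replicate 3 (adjusted p = 0.629 for each, edgeR). Without replicate 1 they were 1.03 and 1.53. Aldoa, an aldolase that muscle also expresses, was at 669, 1207, 3084 and 1125 CPM at 4 AM and 718, 704, 496 and 589 CPM at 4 PM, highest in the muscle-marked replicate 3. Its log2 fold change of 1.28 was 0.68 without replicate 3, and it was not called without both libraries (adjusted p = 0.191, edgeR). The fructose transporter Slc2a5 had the largest fold change of the list (2.58, SE 0.77, adjusted p = 0.435, edgeR), at 2.61, 8.39, 12.8 and 13.6 CPM at 4 AM and 4.26, 1.92, 0.196 and 0.0374 CPM at 4 PM, and stood at 2.41 without replicate 3 and 2.91 without replicate 1.

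Pfkm, the muscle phosphofructokinase, was at 221 CPM in replicate 3 at 4 AM and at 12.7 to 20.1 CPM in the other 7 libraries, and its log2 fold change of 1.96 was -0.13 without that library. Gapdh was counted at 1.51 to 14.0 CPM, an uncertain value for a gene with many near-identical pseudogene copies. Of 11 glycogen genes 4 were higher at an unadjusted p under 0.05 (Gyg, Gbe1, Pygl and Gys2), against 6.55% of all genes, and the median log2 fold change was 0.79. The count was 1 without replicate 3 at 4 AM (all genes, 5.34%) and 8 without replicate 1 at 4 AM (all genes, 9.78%). It was 1 without replicate 3 at 4 PM, a fit in which the share of all genes was not counted.

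**Figure D4:**
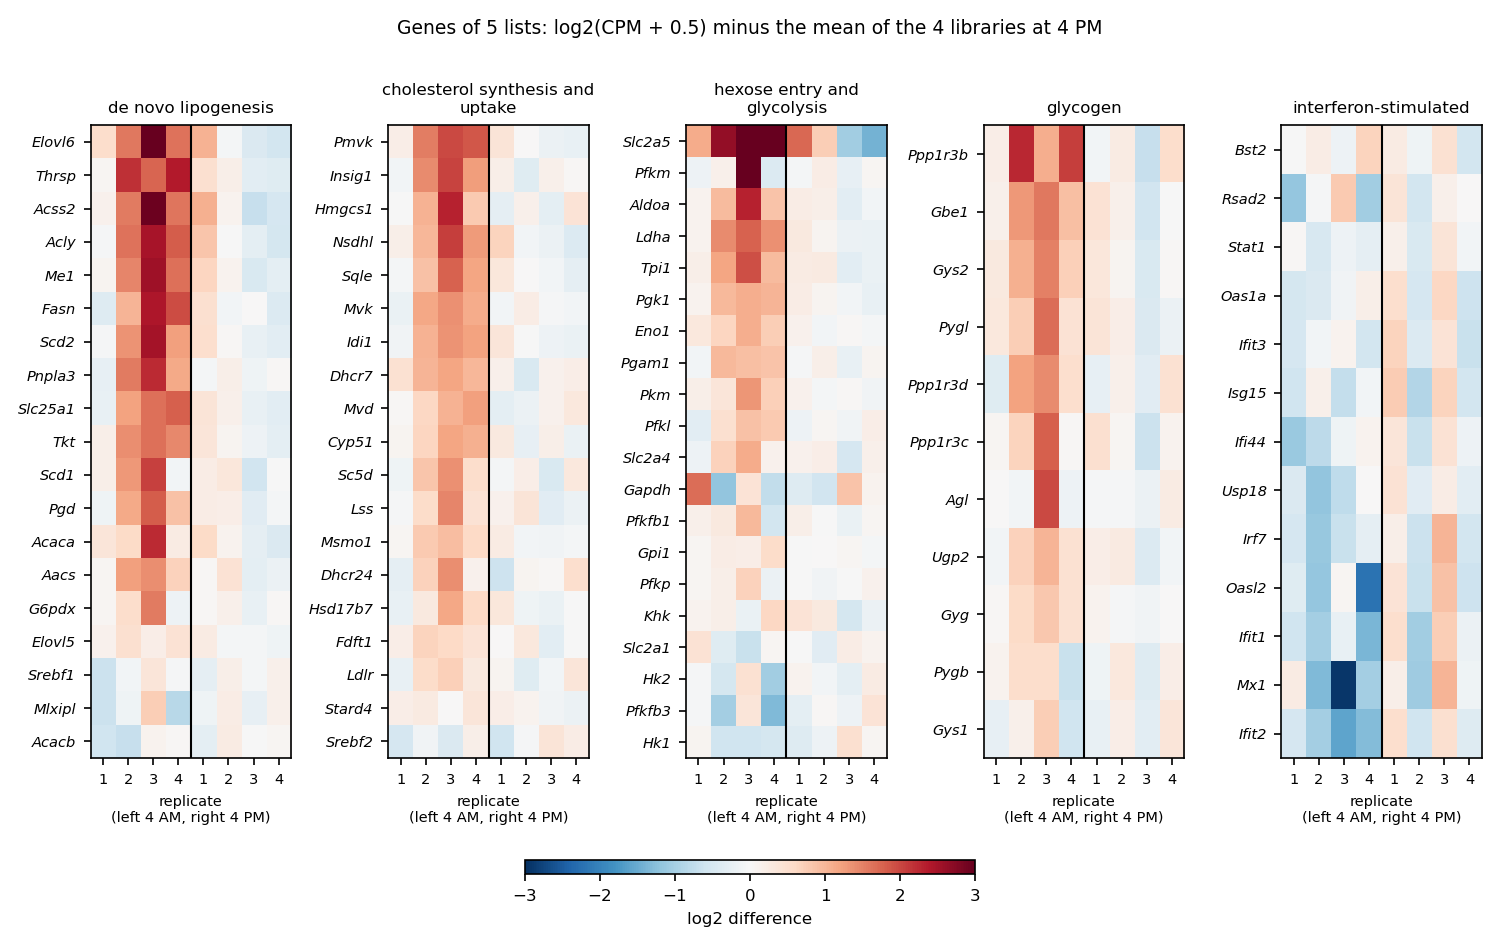
Each row is a reported gene of 1 of 5 lists with a mean above 5 CPM, each column 1 of the 8 libraries (4 AM left of the line, 4 PM right of it), and the colour is log2(CPM + 0.5) minus the mean of the 4 PM libraries, cut at 3. Replicates 2 to 4 at 4 AM are red over most lipogenic, sterol and glycolytic genes, with the deepest colour in replicate 3, while replicate 1 has the pale colours of the 4 PM libraries.

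Genes of protein turnover and of mitochondria lay higher at 4 AM by small, even amounts. All 30 proteasome subunits tested had positive log2 fold changes (median 0.44), and 20 were higher at an unadjusted p under 0.05 with none lower, against 6.55% and 1.27% of all genes. Psmb5, the catalytic subunit of chymotrypsin-like activity, was at 55.7, 114, 90.1 and 141 CPM at 4 AM and 61.8, 60.3, 53.1 and 43.5 CPM at 4 PM (log2 fold change 0.88, SE 0.26, adjusted p = 0.435, edgeR). Psmc4, an ATPase of the regulatory particle, was at 62.2, 90.1, 88.0 and 102 CPM and 63.4, 61.8, 56.8 and 56.6 CPM (log2 fold change 0.52, adjusted p = 0.397). Again replicates 2 to 4 at 4 AM exceeded all 4 PM libraries in both genes and replicate 1 lay among them.

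Of 77 mitochondrial ribosomal protein genes 58 were higher and 0 lower at that threshold (median 0.54), and of 81 nuclear genes for respiratory chain subunits 72 were higher and 0 lower (median 0.73). Without replicate 1 the proteasome, mitochondrial ribosomal and respiratory chain counts were 24, 65 and 75 (all genes, 9.78%), and without replicate 3 they were 13, 52 and 61 (all genes, 5.34%). In the fit of the 8 libraries with a replicate block they were 1, 13 and 28, beside 6 in lipogenesis, 9 in sterol synthesis and 5 in glycolysis. The median of all tested genes was -0.10 in that fit, and the share of all genes at that threshold was not counted. These lists were chosen after results of these data were seen. The share of counts in loci of the TEC biotype, transcripts still to be verified, mostly unspliced, also differed between the libraries. It was 0.0399% to 0.103% at 4 AM, with the 0.103% in replicate 1, and 0.0882% to 0.110% at 4 PM. The share thus partly followed the time labels, and what it reflects was not tested. With that share as a covariate the counts at an unadjusted p under 0.05 were 2 proteasome, 3 mitochondrial ribosomal and 5 respiratory chain genes (medians 0.10, 0.19 and 0.27). They were 12 in lipogenesis, 9 in sterol synthesis and 10 in glycolysis, and of the clock repressors 3 in place of 7 were then lower. The median of all tested genes was 0.03 in this fit, and the share of all genes at that threshold was not counted. The cause of these changes was not tested. The counts also moved with other single libraries. The proteasome count was 9 without replicate 4 at 4 AM and 13 without replicate 4 at 4 PM, and the mitochondrial ribosomal count 29 without replicate 4 at 4 AM. The share of all genes was not counted in these fits either, so a general loss of small p-values cannot be told apart. Of 31 histone genes, chosen in the same way, 12 were higher (median 1.32, all genes 6.55%) and 8 without replicate 3 (all genes, 5.34%). Of 79 cytosolic ribosomal protein genes, whose counts are uncertain because of pseudogene copies, 4 were higher with all libraries and 40 without replicate 3 (all genes, 6.55% and 5.34%).

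Chaperone genes gave few values past the unadjusted threshold. In the unfolded protein and integrated stress response 4 of 18 genes were higher (median 0.27; all genes, 6.55%), led by Calr, the endoplasmic reticulum chaperone calreticulin, at 341, 411, 386 and 456 CPM at 4 AM and 275, 290.2, 315 and 278 CPM at 4 PM without overlap (log2 fold change 0.46, SE 0.12, adjusted p = 0.332, edgeR; 0.48 without replicate 3 and 0.54 without replicate 1). Of 14 heat shock genes 4 were higher (median 0.35; all genes, 6.55%). Hspa8, the constitutive cytosolic chaperone, was at 971, 2908, 909.7 and 2596 CPM and 1047, 904, 1086 and 978 CPM, so replicates 2 and 4 at 4 AM stood well above the other 6 libraries, replicates 1 and 3 included (log2 fold change 0.88, adjusted p = 0.435; 1.11 without replicate 3 and 1.09 without replicate 1). The heat shock count was 2 without replicate 4 at 4 AM, and the unfolded protein count 1 or 2 without replicate 2 or 4 of either time. In these fits the share of all genes was not counted. Of 16 antioxidant genes 3 were higher (Sod2, Prdx1 and Gsta4; median 0.35; all genes, 6.55%).

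Fewer genes passed the unadjusted threshold in the lower direction (253 against 1309). Of 13 interferon-stimulated genes 4 were lower and 0 higher at an unadjusted p under 0.05 (median -0.50; all genes, 1.27% and 6.55%), led by Ifit2, an antiviral protein gene, at 30.8, 21.3, 14.3 and 17.5 CPM at 4 AM and 62.5, 28.8, 60.8 and 33.4 CPM at 4 PM (log2 fold change -1.15, SE 0.28, adjusted p = 0.263, edgeR). The libraries at 4 PM fell into a higher pair, replicates 1 and 3, and a lower pair, replicates 2 and 4, in Ifit2 and also in Ifit1 and Irf7. Without replicate 3 at 4 PM the count was 1, with the share of all genes not counted in that fit. Cpt1a, which carries fatty acids into mitochondria for oxidation, was at 84.2, 27.5, 42.9 and 31.2 CPM and 59.4, 76.0, 86.1 and 72.7 CPM, where replicates 2 to 4 at 4 AM were below all 4 PM libraries and replicate 1 inside their range. The log2 fold change of Cpt1a was -0.66 (adjusted p = 0.467, edgeR) with all libraries and -1.11 without replicate 1 (adjusted p = 0.0221, edgeR). Of the other 13 oxidation genes none had an unadjusted p under 0.05.

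Adipocyte hormones and thermogenic genes gave scattered values. Of 11 adipokines, Retn (0.98) and Rbp4 (1.13) were higher and 1 gene lower on an unadjusted p under 0.05 (all genes, 6.55% and 1.27%). Without replicate 3 these were 0 higher and 1 lower (all genes, 5.34% and 1.56%). Lep, the leptin gene, was at 380.4, 1147, 1025 and 325 CPM at 4 AM and 353, 698, 157 and 579 CPM at 4 PM. Replicates 2 and 3 at 4 AM lay above every 4 PM value of Lep and replicates 1 and 4 within their range (adjusted p = 0.872, edgeR). Of 13 thermogenic genes Cox7a1, which muscle also expresses, was at 1.72, 6.13, 18.2 and 7.84 CPM and 1.99, 2.71, 1.60 and 0.598 CPM, and Cidea, a lipid droplet protein of beige and brown fat, at 24.9, 70.7, 26.0 and 71.4 CPM and 22.7, 37.2, 20.9 and 25.4 CPM. These were the 2 at an unadjusted p under 0.05 (all genes, 6.55% higher), against 4 without replicate 1 (all genes, 9.78% higher). Their log2 fold changes were 2.30 and 0.86, and 1.62 and 1.08 without replicate 3. Lists with at most 1 gene past the unadjusted threshold were triglyceride synthesis (0 of 10), lipolysis and lipid droplets (1 of 13), fatty acid uptake (1 of 10), insulin receptor and FoxO (0 of 14), glucocorticoid targets (1 of 14), immediate early genes (0 of 17), cold-inducible RNA-binding genes (0 of 2), NAD salvage and sirtuins (0 of 11), collagens (0 of 12), proliferation (0 of 16) and the 8 further clock output genes (0 of 8). Of all genes 7.82% passed that threshold in either direction. Of 13 mitochondrially encoded genes 2 were higher (all genes, 6.55%), and 0 without replicate 3 (all genes, 5.34%), where their median of 0.52 was -0.01.

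**Figure D5:**
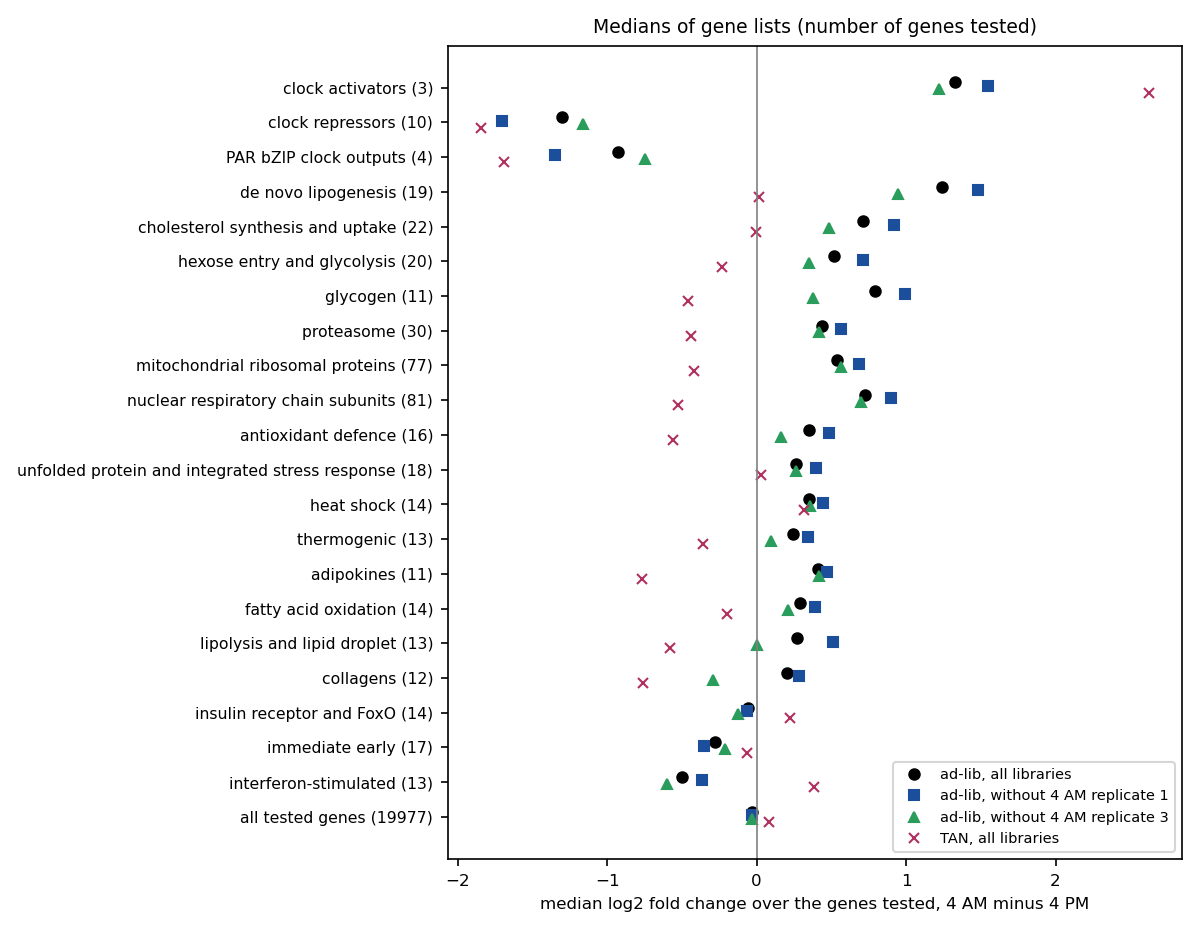
Median log2 fold change (4 AM minus 4 PM) over the tested genes of 21 lists and over all tested genes, for ad-lib with all libraries (circles), without 4 AM replicate 1 (squares), without 4 AM replicate 3 (triangles) and for TAN (crosses). The 3 ad-lib medians of de novo lipogenesis are 1.24, 1.48 and 0.94 beside 0.02 in TAN, while the clock medians have the same sign in both diets.

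The genes called once replicate 1 was left out, beyond those above, named further values to look at; they were chosen after their values were seen. Gypc, the red cell membrane glycophorin C, was at 32.5, 85.0, 98.6 and 81.7 CPM at 4 AM and 35.1, 43.2, 38.8 and 32.2 CPM at 4 PM (log2 fold change 1.25 without replicate 1, adjusted p = 1.10e-04, edgeR), while the summed erythrocyte markers overlapped (318 to 693 CPM at 4 AM and 402 to 677 CPM at 4 PM). Slc16a1, the monocarboxylate transporter that moves lactate, was at 43.8, 144, 131 and 148 CPM and 47.7, 49.1, 44.5 and 44.6 CPM, and the cell cycle inhibitor Cdkn1a at 16.6, 63.9, 53.8 and 57.6 CPM and 16.3, 14.2, 16.3 and 14.1 CPM. In all 3 genes replicates 2 to 4 at 4 AM were close to each other and well above the 4 PM libraries, and replicate 1 lay within 1 CPM of the 4 PM range or inside it. Slc5a6, a vitamin transporter for biotin and pantothenate, lay the other way at 82.9, 19.4, 25.9 and 12.7 CPM and 94.9, 80.3, 69.9 and 67.6 CPM (log2 fold change -2.01, adjusted p = 0.0202, edgeR); 396 of its 3991 exon bases lie under Atraid on the opposite strand.

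Of the 14 summed cell type marker lists, 13 overlapped between the times. Over 17 measures per library the lowest p of the exact permutation test of 4 against 4 was 0.0286 (adjusted p = 0.486). The ranges are therefore given as a description. The summed adipocyte markers were 19204 to 35542 CPM at 4 AM and 17395 to 25118 CPM at 4 PM, with replicate 1 at the low end of its group. The exception to the overlap was the keratinocyte sum, at 3.83 to 4.63 CPM at 4 AM and 1.91 to 2.78 CPM at 4 PM, all of them low. Skeletal muscle had 10 of 11 markers higher at an unadjusted p under 0.05 (all genes, 6.55%) and a median log2 fold change of 7.63 that was -0.37 without replicate 3.

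The same 2 times in TAN mice, in 8 separate libraries, gave 284 called genes (1.42%), 225 higher (1.13%) and 59 lower (0.295%) at 4 AM. Called there were 3 clock genes higher at 4 AM and 7 lower. Dbp fell (-3.95, SE 0.55, adjusted p = 7.30e-05, edgeR; ad-lib -1.90), Nr1d1 fell (-5.08, adjusted p = 7.27e-06; ad-lib -1.44) and Arntl rose (2.62, adjusted p = 1.24e-04; ad-lib 1.33). Dtx4 rose in TAN too (1.52, adjusted p = 0.0175, edgeR). The test of the difference between the diets called no gene (edgeR, lowest adjusted p = 0.0508), with 5253 genes (26.3%) at an unadjusted p under 0.05 and 2034 called by limma voom.

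In the metabolic lists the medians parted between the diets: de novo lipogenesis was 1.24 in ad-lib and 0.02 in TAN, glycolysis 0.52 and -0.23, the proteasome 0.44 and -0.44 (in TAN 22 of 30 lower before adjustment at a p under 0.05, all genes 8.18%), respiratory chain subunits 0.73 and -0.52 and interferon-stimulated genes -0.50 and 0.39. Genes whose difference had an unadjusted p under 0.05 numbered 10 of 19, 11 of 20, 27 of 30, 76 of 81 and 5 of 13 in these lists, against 26.3% of all genes. Pgk1 was at -0.17 in TAN (difference 1.01, adjusted p = 0.0508, edgeR) and Psmd14 at -0.65 (difference 1.25, adjusted p = 0.0508). The TAN libraries differed in cell type marker RNA between the times. B lymphocyte markers summed to 665 to 1096 CPM at 4 AM and 6.00 to 227 CPM at 4 PM, and adipocyte markers to 24110 to 34427 CPM and 38464 to 66647 CPM. The part of this in the differences between the diets was not tested.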

How the data were processed

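Poly-A selected RNA of 48 sWAT libraries was sequenced by the study. The authors deposited raw read counts per gene, which were used here. The submitters' processing notes name TopHat 1.3.3, DESeq2 1.20.0, limma and edgeR and the builds mm9, mm10 and GRCm38 with no role given; the counting tool and its use of strand are not given in the sources used here. Of 54532 genes, 98.1% carried GENCODE M21 start and end positions. The authors' deposited FPKM group means were used only to match labels.

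Counts were fitted in edgeR 4.0.16 (R 4.3.3; TMM, filterByExpr with a minimum count of 10, robust quasi-likelihood) over 12 groups and 48 libraries, with the contrast ad-lib 4 AM minus 4 PM and a threshold of 0.05 on the Benjamini-Hochberg adjusted p. The 8 libraries held 15636378 to 23114360 counts, and a count of 0 allows up to 3 counts. Positive log2 values are higher at 4 AM. Limma 3.58.1, DESeq2 1.42.0 and other filters, scalings, covariates, sets of libraries and a replicate block were alternatives. Marker sums were compared with exact 2-sided permutation tests over 70 arrangements. The smallest possible p is 0.0286, too large for 1 measure alone to pass adjustment over 17 measures.

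The comparison, its members and the gene lists were chosen with earlier results of these data known. The rule named all clock genes and, from every other list without a call, the gene of smallest p; other genes named as examples were chosen after their values were seen. Values of some genes are not reported here, though the lists and their counts include them.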

Additional observations from a re-analysis of the deposited data

Results flagged for a closer look

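In groups of 4 libraries, 13 values lay far from the nearest other library relative to the range of their group (Dixon's test), out of 148 groups of values examined, where chance alone sets apart about 1 in 20 groups. Of these, 6 were in the library labelled 4 AM, replicate 1. It held 69.1 CPM of Dbp, 6.49 CPM of Ciart, 1.67 CPM of Nfil3 and 137 CPM of Pgk1, with 0.393 CPM of Cldn7 and an epithelial marker sum of 10.4 CPM.

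Another 4 were in replicate 3 at 4 AM, with a skeletal muscle marker sum of 7847 CPM, Acta1 at 2149 CPM, the basement membrane collagen Col15a1 at 269.9 CPM and mt-Nd4l at 27.6 CPM. At 4 PM, replicate 3 stood apart in Cd4 (132 CPM) and Col15a1 (57.4 CPM) and replicate 2 in Dhcr7 (12.3 CPM).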

How the results depend on the processing

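The count of genes called between 4 AM and 4 PM was 1 with RLE factors, without a filter, with at least 10 counts in each library, without mitochondrially encoded genes and with a lymphocyte covariate. It was 0 with limma voom, in the fits of 8 and of 24 libraries, with the muscle or the TEC covariate and at an adjusted p under 0.01. Leaving out single libraries gave 0 to 61, the 61 without 4 AM replicate 1, and leaving out replicates 1 and 3 together, chosen after seeing the data, gave 89. DESeq2 called 55 (51 higher), of which 40 were highest in 4 AM replicate 3, and 12 of the 55 were called by DESeq2 without that library. At an unadjusted p under 0.05 the count was 1562. Without replicate 3, edgeR called 0, limma voom 1 and DESeq2 22, muscle genes among these, with 1377 at an unadjusted p under 0.05 in edgeR. The difference between the diets gave 0 calls in edgeR, 2034 in limma voom and 5253 genes at an unadjusted p under 0.05. The cause of these gaps was not tested.

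The replicate numbers did not pair the libraries. In a check over 5000 genes, same-numbered libraries gave -0.23, 0.35, -0.60 and -0.41, and 1 of 4 correlated best with its own number. These are not correlations of the log2 CPM profiles, which were positive for every pair of the 8 libraries. They therefore do not mean that same-numbered libraries had opposed expression. How the values were scaled for this check is not described here. With the replicate block 0 genes were called in the fit of 48 libraries and 0 in that of 8. The share of all genes at an unadjusted p under 0.05 was not counted in these fits. Genes higher at an unadjusted p under 0.05 then numbered, in the fits of 48 and of 8 libraries, 16 and 1 of the proteasome (20 without the block), 55 and 13 of mitochondrial ribosomal proteins (58), 70 and 28 of the respiratory chain (72), 12 and 6 of lipogenesis (13) and 9 and 5 of glycolysis (10).

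Changes of sign were in values near 0 or tied to 1 library. With the TEC covariate Cry2 was at 0.12 and Csnk1d at 0.057. Rora was at -0.061 with limma voom, -0.068 with the replicate block in 8 libraries, -0.27 with the lymphocyte and -0.093 with the muscle covariate. Without both libraries Rora was at -0.36, Col15a1 at -0.20, mt-Nd4l at -0.43 and Acta1 at -0.70, while Cry2, at -0.49, kept its sign. Leaving out single libraries gave -0.38 to 0.076 for Cry2, -0.24 to 0.27 for Rora, -0.18 to 0.89 for Col15a1, -0.40 to 2.75 for Fcgbp, -0.37 to 6.14 for Acta1 and -5.07 to 0.24 for Cldn7, while mt-Nd4l, at 0.12 to 2.25, kept its sign. Without replicate 3 the log2 differences of marker sums became 0.22 (B lymphocyte), 0.31 (T lymphocyte), 0.44 (lymph node stroma), -0.034 (skeletal muscle) and 0.15 (mast cell). Limma voom shifted the median of all genes to -0.12.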
